A study of Rattus norvegicus with 3 samples.

Results

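The genes described here encode the voltage-gated sodium, calcium and potassium channels of the rat, together with their auxiliary subunits and the wider potassium channel families. They were taken from the gene annotation of the deposited matrices by symbol, as every gene whose name begins as a sodium channel subunit (Scn), a calcium channel subunit (Cacna, Cacnb, Cacng) or a potassium channel subunit of the Kcna to Kcnd, Kcnh to Kcnk, Kcnm, Kcnn, Kcnq, Kcns and Kcnt series. This gave 120 of the 29772 annotated genes. They comprised 10 sodium channel alpha subunits and 4 beta subunits, 10 calcium channel alpha1 subunits, 4 alpha2delta, 4 beta and 8 gamma subunits, 33 voltage-gated potassium channel alpha subunits, 3 Kv beta subunits, 4 Kv channel-interacting proteins, 15 inward rectifiers, 14 two-pore domain channels and 11 calcium- or sodium-activated potassium channel subunits.

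The study profiled single cells of wild-type rat embryonic cerebral cortex. Tissue was dissociated with papain, and freshly prepared primary cells were captured with a droplet kit from 10x Genomics that reads the 3′ ends of transcripts. Embryonic ages of 14, 16 and 18 days were each represented by 1 library, labelled E14, E16 and E18, with no treatment. The labels give neither the strain nor how many embryos were pooled, so no spread between animals could be measured. Every interval below covers counting error only, and no test between labels was possible. Cells were kept when they had at least 1000 detected genes and at most 10% mitochondrial counts, which with removal of predicted doublets left 4286, 4977 and 5431 cells in the libraries labelled E14, E16 and E18.

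Stage genes went against the order of the labels. In radial glia, Hmga2, a gene of early progenitors, stood at 11.9, 223.1 and 20.99 counts per 1000000 UMIs (CPM, where a UMI is 1 counted transcript molecule) in the libraries labelled E14, E16 and E18. Tnc, which is expressed by late radial glia, stood at 115.2, 0.175 and 7.23 CPM in the same order. By these genes the library labelled E16 looked the earliest and the library labelled E14 the latest, so each library is called by its label throughout and no direction with age is drawn from it. The tissue label was met in all 3 libraries, since the cortical genes Emx1 (105.2, 140.5 and 151.8 CPM) and Emx2 (29.34, 149.2 and 85.02 CPM) were detected in each. The libraries shared 12 to 17 cell barcodes in each pair.

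Voltage-gated channels open when the membrane potential changes and let a selected ion cross the membrane. Sodium channels carry the upstroke of the action potential, calcium channels turn depolarisation into calcium entry, and voltage-gated potassium channels bring the membrane back to rest. Inward rectifiers and two-pore domain channels set the resting potential, including that of dividing progenitors and glia, while calcium-activated potassium channels couple calcium entry to repolarisation. In the embryonic cortex these genes are read in an ordered lineage, in which radial glia are the stem cells, intermediate progenitors divide below the neuronal layer, and newborn excitatory neurons migrate and mature.

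The 4 promoter stretches below illustrate the gene pairs and cell-class patterns that follow. They are the 250 bases before the annotated start in RefSeq on build GRCr8, which is a later assembly than the one used for counting. Scn3a and Scn2a are shown because they are neighbours with starts 44758 bases apart on opposite strands, yet they had different profiles along the lineage. Cacng3 is shown because it carried letters matching the left and right parts of the binding site of REST, on opposite strands. REST is a repressor of neuronal genes, and Rest was high in radial glia here. Kcnj13 is shown because it was far higher in the choroid plexus than in any other class. Capitals mark the motifs that were searched, and sequences run 5′ to 3′ on the gene's strand.
Scn3a, chr3:70666199-70666448, minus strand: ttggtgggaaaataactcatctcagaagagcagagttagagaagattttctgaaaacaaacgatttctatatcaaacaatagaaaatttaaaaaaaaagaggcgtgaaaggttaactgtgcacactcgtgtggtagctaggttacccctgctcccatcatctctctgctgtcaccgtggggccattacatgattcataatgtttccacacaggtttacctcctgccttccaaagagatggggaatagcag
Scn2a, chr3:70710706-70710955, plus strand: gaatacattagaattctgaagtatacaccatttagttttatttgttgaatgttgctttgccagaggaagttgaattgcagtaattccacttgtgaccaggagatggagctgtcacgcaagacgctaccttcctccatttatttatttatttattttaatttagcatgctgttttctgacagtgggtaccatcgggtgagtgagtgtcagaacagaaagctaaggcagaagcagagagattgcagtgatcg
Cacng3, chr1:186632312-186632561, plus strand: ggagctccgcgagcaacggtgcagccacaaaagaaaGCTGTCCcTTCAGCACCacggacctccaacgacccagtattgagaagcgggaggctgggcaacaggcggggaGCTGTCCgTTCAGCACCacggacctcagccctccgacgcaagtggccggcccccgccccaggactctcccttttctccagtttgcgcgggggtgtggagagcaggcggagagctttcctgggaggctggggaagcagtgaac
Kcnj13, chr9:95518987-95519236, minus strand: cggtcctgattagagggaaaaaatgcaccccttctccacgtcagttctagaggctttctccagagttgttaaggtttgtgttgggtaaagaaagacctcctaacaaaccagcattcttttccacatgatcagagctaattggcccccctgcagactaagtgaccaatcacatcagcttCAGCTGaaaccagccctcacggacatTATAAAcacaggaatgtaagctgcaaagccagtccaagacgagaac

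The motifs were searched on both strands in all 33469 RefSeq promoters of this length, of which 90 belonged to 81 of the channel genes. TTCAGCACC, the left part of the REST site, was in 2 of the 90 channel promoters (2.22%), those of Cacng3 and Kcnh6, and in 0.305% of all promoters. GGACAGC, the right part, was in 8 of 90 (8.89%) against 5.3% of all. TATAAA, the core of a TATA box, was in 4 of 90 (4.44%) against 12.9%, and CAGCTG, an E-box, was in 19 of 90 (21.1%) against 12%. CAGATG, the E-box form bound by neurogenic factors of the Neurog and Neurod families, was in 4 of 90 (4.44%) against 14%. The median number of CG pairs was 12 in channel promoters and 5 in all promoters. In Kcnj13 the capitals are 1 CAGCTG and 1 TATAAA, and in Cacng3 they are 2 copies each of both parts of the REST site, the right part on the opposite strand. No whole REST site is thus marked. Scn3a and Scn2a held none of these motifs. These matches describe letters in a window and say nothing about occupancy.

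Cell classes were rebuilt by clustering without the channel genes and named from marker lists. Radial glia-like cells numbered 401, 2977 and 1813 in the libraries labelled E14, E16 and E18, intermediate progenitor-like cells 447, 398 and 1074, and excitatory neuron-like cells 3332, 609 and 2249. Among excitatory neurons of the libraries labelled E14 and E18, the newborn class held 559 and 1513 cells and the maturing class 1498 and 733 cells. A further 1275 neurons of the library labelled E14 were not split between newborn and maturing. The newborn class of the library labelled E14 was mostly 1 cluster (549 cells) called upper layer-like from raised markers, none of them among its 10 leading genes. That of the library labelled E18 was mostly 2 clusters led by Pcp4 (810 cells) and Neurod1 (684 cells), which are given no layer name. Both scored highest for layer 6, but the leading genes of the first included the corticofugal markers Pcp4 and Bcl11b. The layer name of the newborn class labelled E14 thus rests on less than those of the maturing clusters. Of the 609 excitatory neurons of the library labelled E16, 607 belonged to a cluster led by Calb1, Calb2 and Lhx9. It raised 3 newborn markers, the fewest that gave a name, but its 10 leading genes held 0 newborn markers, 3 preplate markers (Calb2, Lhx9 and Nxph4) and 1 Cajal-Retzius marker (Ebf2). These 609 cells are therefore called Calb1 neurons and are not taken as the newborn class, and "newborn or Calb1 neurons" stands for newborn neurons of the libraries labelled E14 and E18 and Calb1 neurons of that labelled E16. Smaller classes were Cajal-Retzius-like cells (16, 144 and 72), GABAergic cells (56, 74 and 69), choroid plexus, erythroid, meningeal, endothelial, mural and microglial cells. A cluster of 412 cells led by Fgf17 and Fgf8 was left unnamed.

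At least 1 UMI was found for 106, 115 and 113 of the 120 channel genes in the libraries labelled E14, E16 and E18. Only 48 reached 20 CPM in a class of at least 30 cells in any library, and the other 72 stayed below that level. Scn7a, Kcnj1, Kcnk18 and Kcna10 had no UMI in any class. Summed over the 120 genes, channel transcripts made up 415.9, 279.8 and 355.2 CPM of radial glia, 423.9, 294.5 and 394.8 CPM of intermediate progenitors, and 954.2, 764.3 and 902.7 CPM of excitatory neurons. The excitatory neurons of each library were thus above its radial glia, and the sum was higher still in maturing neurons, at 1035 and 1191 CPM in the libraries labelled E14 and E18. Cajal-Retzius cells had 1161 and 1650 CPM in the libraries labelled E16 and E18. Outside the neural classes the sum over the 3 libraries ranged from 34.53 CPM in erythroid cells, which do not fire action potentials, to 757.5 CPM in mural cells, with 145 CPM in microglia, 262.8 in endothelial cells, 306.8 in meningeal cells and 606.5 in choroid plexus. The sums of mural cells and choroid plexus thus lay above that of all radial glia (315 CPM).

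**Figure D1:**
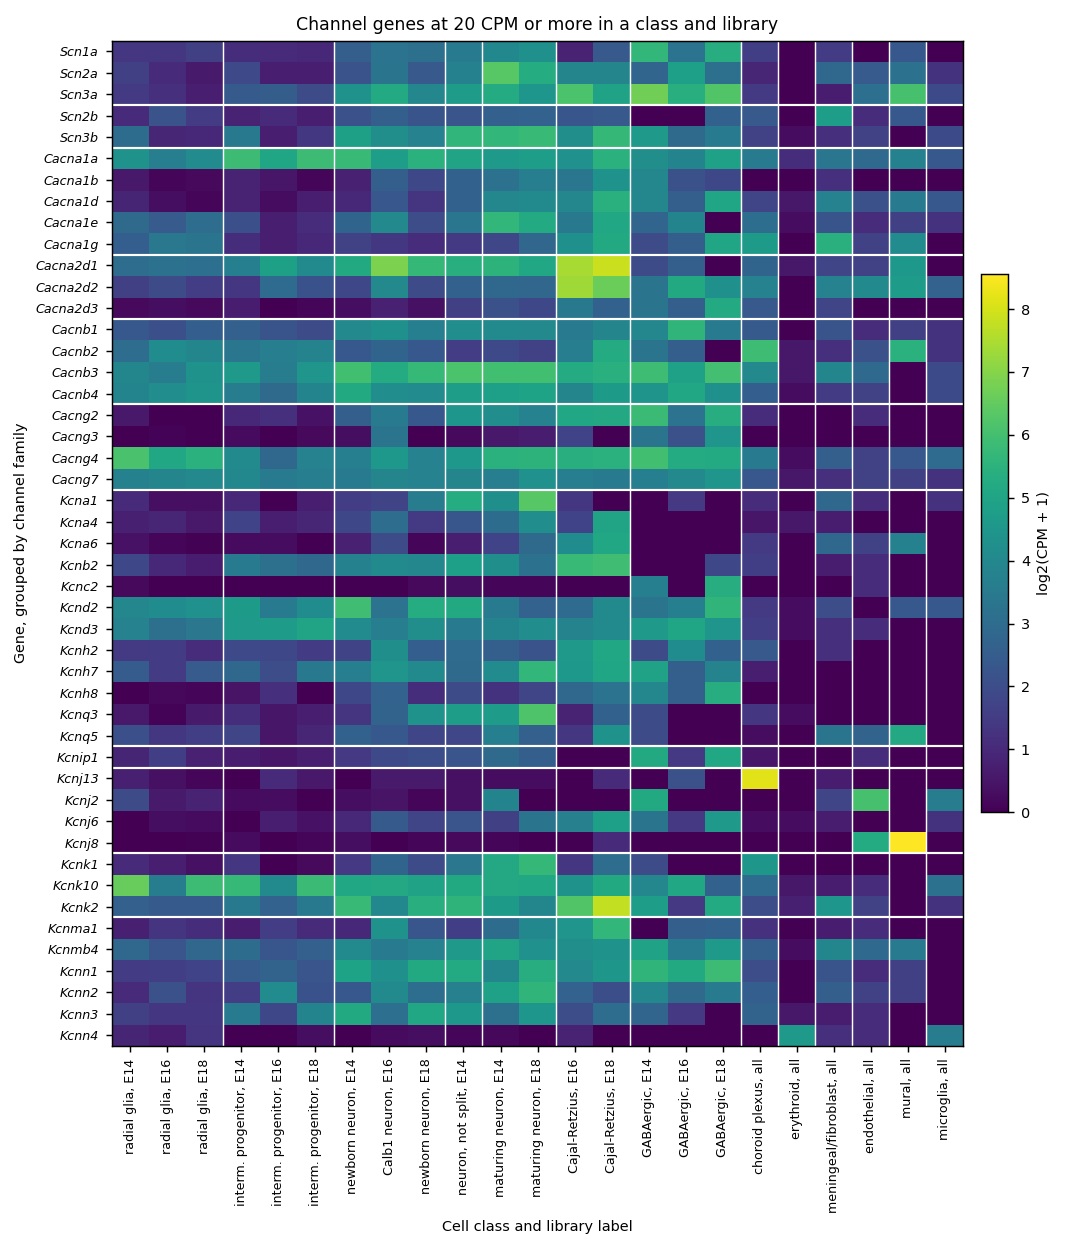
Levels of 47 of the 48 channel genes that reached 20 CPM, as log2(CPM + 1) by colour, with 1 row per gene grouped by family and 1 column per cell class and library label (non-neural classes pool the libraries). Neuron columns are brighter than radial glia columns for most rows, and Cacng4 and Kcnk10 are bright in radial glia. Kcnj8 is brightest in mural cells and also present in endothelial cells, and Kcnj13 is brightest in choroid plexus.

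Excitatory neurons were compared with radial glia within each library. A gene was counted as higher or lower when the CPM ratio was at least 2 or at most 0.5 after adding 1 CPM to each side, among genes with a mean of at least 5 CPM over both classes. In the library labelled E14, 28 of 38 channel genes were higher in neurons, against 13.6% of all genes tested, and 3 were lower, against 19.9%. In the library labelled E16, 21 of 31 were higher (14% of all genes) and 4 were lower (16.4%). In the library labelled E18, 22 of 32 were higher (14% of all genes) and 3 were lower (17.3%). The median log2 ratio of the channel genes was 2.03, 1.64 and 1.80, against -0.19, -0.06 and -0.09 over all genes tested. Members that passed the level minimum did so mostly through the neurons, so these counts describe the genes detected and not all 120. Other values moved with this contrast. The median mitochondrial share was 7.17%, 5.79% and 5.75% in neurons and 5.35%, 3.58% and 4.43% in radial glia. The 9 endothelial markers summed to 58.27, 20.09 and 21.65 CPM in neurons, with 9, 7 and 8 detected, and to 13.45, 9.564 and 9.278 CPM in radial glia, with 4, 9 and 9 detected. Ramp2 made up 55.8, 17.2 and 19.4 CPM of the neuronal sums, and Cldn5, Pecam1 and Cdh5 stood at 1.45 CPM or less in both classes. The 6 mural markers summed to 1.667, 4.343 and 2.143 CPM in neurons, with 5, 4 and 4 detected, and to 41.21, 31.75 and 35.7 CPM in radial glia, with 3, 6 and 5 detected. The 6 Cajal-Retzius markers summed to 199.9 CPM in neurons and 12.53 CPM in radial glia of the library labelled E16, and the 7 preplate markers to 550.4 and 37.49 CPM there and to 135 and 50.67 CPM in that labelled E18. The part of the mitochondrial share and of these marker lists in the contrast was not tested. With newborn neurons alone in place of all excitatory neurons, a choice made after seeing the data, 17 were higher in the library labelled E14, and with a minimum of 20 CPM 5, 3 and 5 were higher in the 3 libraries.

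Each library held both classes, so the contrast could also be tested over the 3 libraries, with UMIs summed per class and the library as a block. This fit (edgeR's quasi-likelihood test, Benjamini-Hochberg adjustment over all genes) was added after the data had been seen, and it treats libraries of different labels as replicates of the contrast. Of 79 channel genes tested, 53 were higher in neurons at an adjusted p under 0.05, against 25.6% of all genes tested, and 9 were lower, against 25.4%. Scn3a had a log2 fold change of 4.76 (standard error 0.32 from DESeq2, adjusted p = 0.000818 by edgeR). Kcnn1 and Kcnb2 had log2 fold changes of 3.70 and 3.88, with adjusted p-values of 0.00128 and 0.00161 by edgeR. Among the 9 lower genes, Kcnj10 and Kcnk5, named after their values were seen, had log2 fold changes of -5.94 and -5.90, with adjusted p-values of 0.00135 and 0.00155 by edgeR. Without the library labelled E18, 35 were higher and 2 were lower. Kcnk10 had a log2 fold change of -0.19 and an adjusted p of 0.822 in the edgeR fit over the 3 libraries.

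Of the 23 channel genes that passed the minimum in every library, 14 were higher in neurons in all 3, against 8.92% of all genes past the minimum in every library. They included Scn3a, Kcnn1, Kcnb2, Scn3b, Cacna2d1, Kcnn2, Scn1a, Kcnk2, Cacnb3, Kcnh7, Cacnb1, Kcnmb4 and Cacna1e. They include sodium channel pores and an auxiliary subunit, a calcium channel pore (Cacna1e) and auxiliary subunits, delayed rectifier and ether-a-go-go-related potassium channels, a leak channel and calcium-activated channels. Kcnab3, a cytoplasmic beta subunit of Kv channels, was the 1 gene lower in neurons in all 3 libraries, against 12.1% of all genes. It stood at 3.53, 4.34 and 3.17 CPM in neurons and at 9.48, 12.5 and 14.6 CPM in radial glia. Of the 14, 11 kept the call with no doublets removed (without Cacna1e, Kcnh7 and Scn1a), 10 with 5 CPM added and 2 with a minimum of 20 CPM, while Kcnab3 lost it with 5 CPM added, with the mean of cells and with the minimum of 20 CPM. The adjusted p of Kcnab3 in the edgeR fit was 0.0075. The neurons entering this comparison differed in composition, since those of the library labelled E16 were Calb1 neurons.

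**Figure D2:**
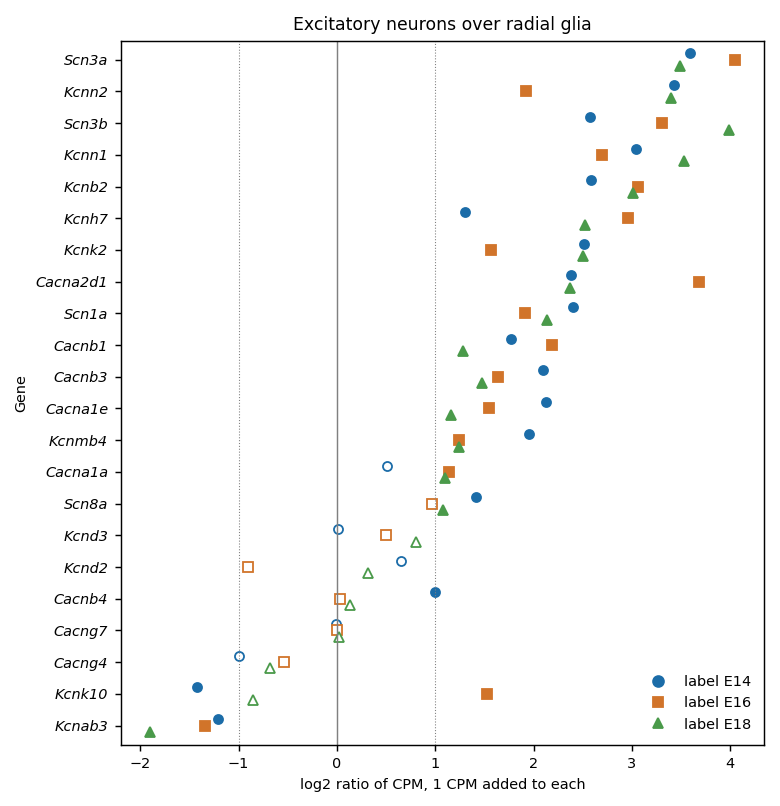
Log2 ratio of CPM in excitatory neurons over radial glia (1 CPM added to each) for 22 of the 23 channel genes past the level minimum in every library, with 1 symbol per library label. Filled symbols mark a ratio of at least 2 or at most 0.5 (dotted lines), open symbols a smaller difference. Scn3a lies furthest to the right, Kcnab3 to the left in all libraries, and Kcnk10 lies on both sides of 0.

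Among the sodium channel pores, Scn3a, which encodes Nav1.3, a channel of embryonic neurons, was low in progenitors and raised in neurons of every library. Its level in radial glia was 1.72, 1.27 and 0.629 CPM in the libraries labelled E14, E16 and E18. In newborn or Calb1 neurons it was 20.2 (95% interval 16.1 to 25.0), 36.6 (31.7 to 42.0) and 14.4 (12.4 to 16.7) CPM. The intervals of the 2 classes did not overlap in any library. In maturing neurons it was 37.1 and 21.3 CPM in the libraries labelled E14 and E18, above the newborn class of the same library in both, though by less than 2-fold. The ratio of all excitatory neurons over radial glia had a log2 value of 3.49 to 4.05 over the 3 libraries.

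Scn2a, which encodes Nav1.2, the main pore of immature excitatory axons, followed later in the lineage. Radial glia had 2.07, 1.05 and 0.55 CPM and newborn or Calb1 neurons 3.61, 8.87 and 4.23 CPM in the libraries labelled E14, E16 and E18. Maturing neurons had 79.5 (75.9 to 83.2) and 38.5 (34.7 to 42.6) CPM in the libraries labelled E14 and E18. Scn2a was therefore near the progenitor level in the newborn class of the library labelled E14 and many-fold above it in the maturing class, with log2 ratios of maturing over newborn of 4.13 and 2.92. The 1275 neurons not split had 12.5 CPM, between the newborn and maturing values of their library.

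The relative use of the sodium channel pores, as each gene's share of all alpha subunit UMIs in a class, differed between newborn and maturing neurons. Such a share is not corrected for transcript features, so it is compared only between classes. Scn2a took 8.47%, 12.3% and 10.9% of alpha subunit UMIs in newborn or Calb1 neurons, and 52.5% (50.9 to 54.2) and 38.1% (35.1 to 41.3) in maturing neurons of the libraries labelled E14 and E18. Scn3a took 47.5%, 50.6% and 37.1% in newborn or Calb1 neurons and 24.5% and 21.1% in maturing neurons. In radial glia the summed alpha subunits reached only 10.9, 13.9 and 10.3 CPM, and Scn8a had the largest number of their UMIs, with 44.4%, 39.7% and 54.8%. The summed level was 42.6, 72.2 and 38.9 CPM in newborn or Calb1 neurons and 151 and 101 CPM in maturing neurons.

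Scn1a, which encodes Nav1.1, a pore known for its role in inhibitory interneurons, was highest in the GABAergic class in 2 libraries. GABAergic cells had 49.9 (29.1 to 80.0), 8.49 (2.76 to 19.8) and 39.3 (22.0 to 64.9) CPM in the libraries labelled E14, E16 and E18. The maturing excitatory neurons had 15 and 18.4 CPM in the libraries labelled E14 and E18, and the intervals of the 2 classes did not overlap in either. Radial glia stayed at 1.55, 1.53 and 2.04 CPM. Scn8a, which encodes Nav1.6, the pore of mature axon initial segments, differed less between these classes than Scn1a, Scn2a and Scn3a, with 4.83, 5.52 and 5.66 CPM in radial glia and 14.5, 11.8 and 13.1 CPM in excitatory neurons. Its ratio passed 2-fold in the libraries labelled E14 and E18, and fell just short, at a log2 value of 0.97, in that labelled E16.

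Scn9a, which encodes Nav1.7 and is best known from sensory neurons, was at most 1.09 CPM in radial glia, intermediate progenitors and newborn or Calb1 neurons of each library. It reached 4.73 (3.89 to 5.70) and 7.37 (5.76 to 9.30) CPM in maturing neurons of the libraries labelled E14 and E18.

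Of the sodium channel beta subunits, which tune gating and cell adhesion, Scn3b was the one with a clear neuronal profile. It stood at 7.07, 0.873 and 0.983 CPM in radial glia and at 27.9, 17.6 and 12.9 CPM in newborn or Calb1 neurons. Maturing neurons had 49.3 and 53.8 CPM. The radial glia of the library labelled E14 were above those of the other 2 libraries. Scn2b was at most 5.50 CPM along the excitatory lineage and was highest in meningeal cells, at 26.0 (18.8 to 35.2) CPM. Scn4b had UMIs only in radial glia of the library labelled E16, at 0.0873 CPM, among the progenitor, excitatory, Cajal-Retzius and GABAergic classes. The kit reads the 3′ ends of transcripts, and whether that of Scn4b was covered by the annotation was not tested.

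**Figure D3:**
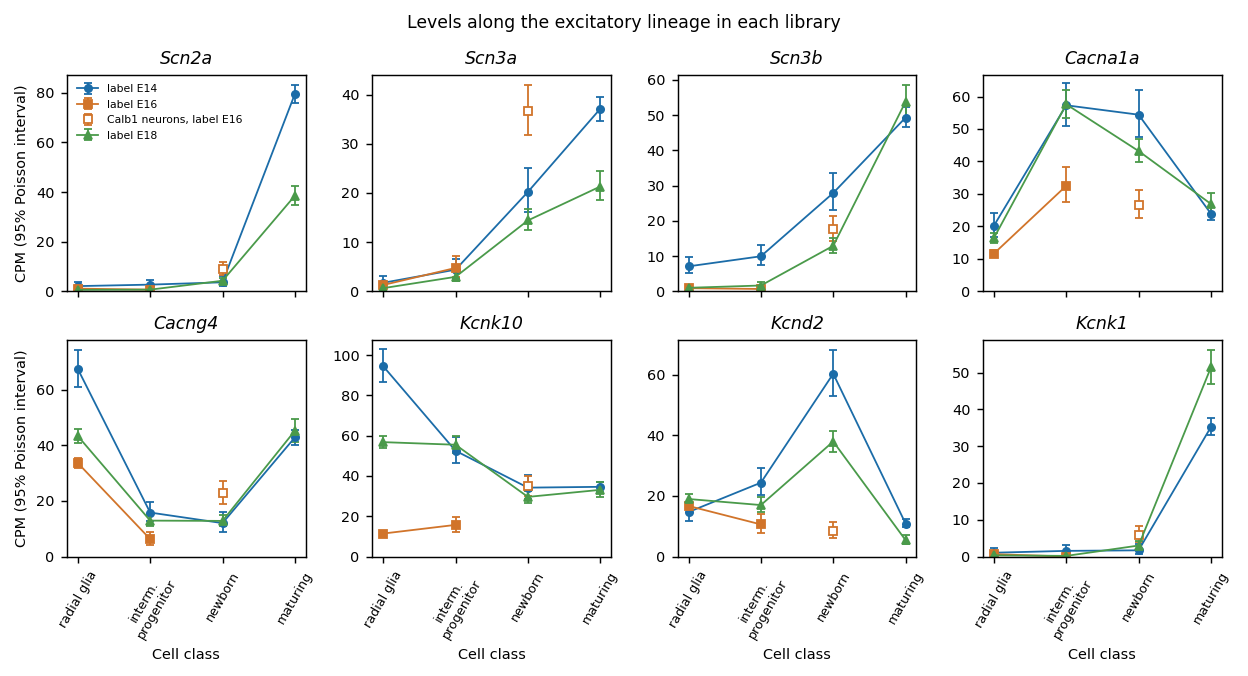
CPM with 95% Poisson intervals of 8 channel genes along the excitatory lineage, with 1 line per library label. Maturing neurons are shown for the libraries labelled E14 and E18, and the open square in the newborn position, joined to no line, gives the Calb1 neurons of the library labelled E16. Scn2a and Kcnk1 are raised mainly in maturing neurons, Cacna1a is highest in intermediate progenitors, Cacng4 has its lowest value in intermediate progenitors or newborn neurons, and Kcnk10 in radial glia differs between libraries.

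The pores of the calcium channels did not all have the same profile along the lineage, and several were highest in maturing neurons. Cacna1a, which encodes the P/Q-type pore Cav2.1 of presynaptic terminals, was highest in intermediate progenitors. Radial glia had 20.2, 11.6 and 16.4 CPM, intermediate progenitors 57.3, 32.5 and 57.6 CPM, newborn or Calb1 neurons 54.4, 26.6 and 43.2 CPM, and maturing neurons 23.9 and 26.9 CPM in the libraries labelled E14 and E18. The intermediate progenitor interval lay above that of radial glia in all 3 libraries, with ratios of 2.84, 2.82 and 3.52. Intermediate progenitors overlapped with newborn neurons in the library labelled E14 and with Calb1 neurons in that labelled E16. The newborn intervals lay above the maturing ones in both libraries that held that class.

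Cacna1e, which encodes the R-type pore Cav2.3, and Cacna1d, which encodes the L-type pore Cav1.3, were raised in maturing neurons. Cacna1e stood at 6.72, 4.54 and 7.23 CPM in radial glia and 3.25, 0.646 and 1.14 CPM in intermediate progenitors. It was at 5.78, 15.2 and 3.06 CPM in newborn or Calb1 neurons and at 50.2 (47.4 to 53.2) and 36.3 (32.6 to 40.3) CPM in maturing neurons. Intermediate progenitors were below radial glia in all 3 libraries, with overlapping intervals in that labelled E14, and maturing neurons were above every earlier class. Cacna1d was at most 0.862 CPM in radial glia and at 0.963, 3.98 and 1.49 CPM in newborn or Calb1 neurons. It reached 14.7 (13.1 to 16.3) and 15.6 (13.2 to 18.3) CPM in maturing neurons. Cacna1b, the N-type pore Cav2.2, had 0.722, 5.07 and 2.59 CPM in newborn or Calb1 neurons and 8.27 and 11.6 CPM in maturing neurons.

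Among the T-type pores, which open near the resting potential, Cacna1g and Cacna1h ran in opposite directions between radial glia and newborn or Calb1 neurons. Cacna1g (Cav3.1) was at 4.83, 9.80 and 8.88 CPM in radial glia and at 2.17, 1.63 and 1.10 CPM in newborn or Calb1 neurons. Cacna1h (Cav3.2) was at 0.517, 0.349 and 0.315 CPM in radial glia, at 3.61, 9.59 and 6.51 CPM in newborn or Calb1 neurons and at 16.7 and 12.5 CPM in maturing neurons. In the edgeR fit of maturing over newborn neurons both had positive log2 fold changes, 1.57 for Cacna1g and 1.52 for Cacna1h. Their adjusted p-values by edgeR were 0.139 and 0.0541. Cacna1i (Cav3.3) was at most 0.511 CPM in these classes. Cacna1c, which encodes the L-type pore Cav1.2, was nearly flat, with 3.19 to 4.66 CPM in radial glia and 3.44 to 5.29 CPM in newborn or Calb1 neurons. Cacna1f and Cacna1s, the L-type pores of retina and skeletal muscle, were at most 0.208 CPM along the excitatory lineage.

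The auxiliary calcium channel subunits bring the pores to the membrane and, for the alpha2delta family, also act at forming synapses. Cacna2d1 (alpha2delta-1) stood at 7.41, 8.23 and 7.67 CPM in radial glia and at 35.4, 117 and 51.1 CPM in newborn or Calb1 neurons. It was at 44.9 and 33.8 CPM in maturing neurons, and the Calb1 neurons were above all other excitatory values. GABAergic cells had 2.94, 5.09 and 0 CPM. Cacnb3, a cytoplasmic beta subunit, was at 14.1, 11.3 and 19.5 CPM in radial glia, 61.6, 37.3 and 52.0 CPM in newborn or Calb1 neurons and 61.6 and 61.8 CPM in maturing neurons. Cacnb1 likewise was at 4.14, 3.28 and 4.87 CPM in radial glia and 15.4, 18.5 and 11.8 CPM in newborn or Calb1 neurons.

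Cacnb2 ran the other way. Its radial glia had 7.24, 16.9 and 14.3 CPM and its newborn or Calb1 neurons 4.09, 5.79 and 4.08 CPM, and it was lower in excitatory neurons by at least 2-fold in the libraries labelled E16 and E18. Cacnb4 stood at 13.4, 17.1 and 20.5 CPM in radial glia and at 27.9, 17.4 and 22.5 CPM in excitatory neurons. It was higher in neurons of the library labelled E14, with a log2 ratio of 1.00, and its ratios in the libraries labelled E16 and E18 were 0.03 and 0.13. In the library labelled E14 its highest level was that of newborn neurons, at 35.9 CPM. Cacng4, which belongs to the gamma subunits that also act as auxiliary subunits of AMPA receptors (TARPs), had a dip in mid-lineage. It stood at 67.4, 33.6 and 43.3 CPM in radial glia, 15.8, 6.25 and 12.9 CPM in intermediate progenitors and 12, 22.8 and 12.8 CPM in newborn or Calb1 neurons. Maturing neurons of the libraries labelled E14 and E18 had 42.8 and 45.2 CPM. The interval of intermediate progenitors lay below that of radial glia in every library, with ratios of 0.235, 0.186 and 0.297.

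Cacng2, known as stargazin, was at most 0.517 CPM in radial glia and reached 17.4 and 13.0 CPM in maturing neurons. It was at 55.8, 8.49 and 39.3 CPM in GABAergic cells. Cacng7 differed least between radial glia and excitatory neurons among the 23 genes past the minimum in every library, with 12.4, 13.7 and 15.4 CPM in the former and 12.3, 13.8 and 15.6 CPM in the latter. Cacng3, whose promoter holds the part matches to the REST site shown above, had 0, 0.0655 and 0 CPM in radial glia. It was detected at 8.69 CPM in Calb1 neurons and at 8.81, 3.40 and 21.0 CPM in GABAergic cells, and was at most 0.623 CPM in maturing neurons. Rest itself was at 22.2, 34.9 and 34.0 CPM in radial glia and at 2.76, 5.07 and 3.30 CPM in excitatory neurons. Any action of REST on Cacng3 was not tested.

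Voltage-gated potassium channel pores were higher in neurons for 7 of the 10 genes past the minimum in the library labelled E14, 5 of 7 in that labelled E16 and 5 of 8 in that labelled E18, against 13.6%, 14% and 14% of all genes. None was lower, against 19.9%, 16.4% and 17.3%. The minimum could be passed through the neurons alone, so these counts describe the genes detected and not all 33 pores. Kcnq3, which encodes a pore of the M-current that restrains repetitive firing, was at most 0.55 CPM in radial glia. It stood at 1.44, 5.61 and 20.0 CPM in newborn or Calb1 neurons and at 25.0 and 73.1 CPM in maturing neurons. Its values in the library labelled E18 were above those of the library labelled E14 in both classes.

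Kcna1, which encodes the axonal pore Kv1.1, also differed by library. Newborn or Calb1 neurons had 1.93, 2.35 and 11.3 CPM, maturing neurons 18.2 and 78.9 CPM, and the neurons not split in the library labelled E14 had 37.9 CPM, above the maturing class of the same library. Kcnb2, a delayed rectifier pore, stood at 2.59, 1.00 and 0.59 CPM in radial glia and 12.5, 15.7 and 14.5 CPM in newborn or Calb1 neurons.

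Kcnd2, which encodes Kv4.2, the pore of the dendritic A-type current, was highest along the excitatory lineage in the newborn class in 2 libraries. It stood at 14.7, 16.7 and 19.0 CPM in radial glia and at 60.4 (53.2 to 68.4), 8.50 and 38.0 CPM in newborn or Calb1 neurons. Maturing neurons had 10.9 and 5.40 CPM, and were lower than newborn neurons by at least 2-fold in both libraries. In the library labelled E16 the Calb1 neurons were below radial glia. Kcnd3 (Kv4.3) was at 12.8, 7.88 and 9.59 CPM in radial glia and at 23.1, 25.6 and 30.6 CPM in intermediate progenitors. Kcnh7, an ether-a-go-go-related pore, was at 4.66, 1.86 and 4.48 CPM in radial glia and at 11.6, 21.2 and 16.1 CPM in newborn or Calb1 neurons. It reached 16.4 and 49.5 CPM in maturing neurons.

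The leak channels of the two-pore domain family showed 3 patterns. Kcnk1 (TWIK-1) was highest in maturing neurons of the corticofugal-like clusters, with 1.03, 0.633 and 0.315 CPM in radial glia, 1.68, 5.79 and 2.98 CPM in newborn or Calb1 neurons and 35.2 and 51.4 CPM in all maturing neurons. In the library labelled E14 the upper layer-like maturing neurons had 4.23 CPM, against 1.72 CPM in upper layer-like newborn neurons, a log2 ratio of 0.95. Kcnk2, which encodes the mechanosensitive channel TREK-1, was highest along the excitatory lineage in newborn or Calb1 neurons, with 5.17, 4.35 and 4.40 CPM in radial glia and 53.7, 14.8 and 41.2 CPM in those neurons. Maturing neurons had 24.5 and 14.3 CPM, lower by at least 2-fold than the newborn neurons of the same library. This call was lost under 7 other settings, where the log2 ratio nearest 0 lay between -0.99 and -0.53.

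Kcnk10, which encodes the related channel TREK-2, had the largest difference between libraries in radial glia among the channel genes past the minimum there, at a log2 ratio of -2.94 with 1 CPM added. Without the added CPM, Kcnj10 differed slightly more, with an 8.99-fold difference against 8.27-fold for Kcnk10. It stood at 94.5, 11.4 and 56.8 CPM in radial glia, at 52.5, 15.7 and 55.5 CPM in intermediate progenitors and at 34.2, 34.9 and 29.6 CPM in newborn or Calb1 neurons. The neuronal values were close together, while the radial glia values lay far apart. Within a library every radial glia cluster of at least 30 cells was alike, at 82.1 to 104 CPM in that labelled E14, 10.3 to 12.3 CPM in that labelled E16 and 53.4 to 63.9 CPM in that labelled E18. The order of the libraries was that of Tnc, and the reverse of that of Hmga2, given above.

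Few of the 15 inward rectifiers passed the minimum of 5 CPM in the comparison of excitatory neurons with radial glia, 2 in the library labelled E14 and 0 in the other libraries. Between maturing and newborn neurons 1 passed in each library with both classes and was higher in maturing neurons, against 8.94% and 6.47% of all genes. These were Kcnj2 in that labelled E14 and Kcnj6 (8.82 and 2.43 CPM) in that labelled E18. Kcnj10, which encodes the glial channel Kir4.1, was at 12.8, 1.42 and 6.84 CPM in radial glia and at most 0.241 CPM in newborn or Calb1 neurons. Kcnj2, which encodes Kir2.1, was at 13.5 CPM in maturing neurons of the library labelled E14 and had no UMI in those of the library labelled E18, which allows a level of up to 0.311 CPM (3 counts). Among the calcium-activated channels all 4 genes past the minimum were higher in neurons in each library, against 13.6%, 14% and 14% of all genes. The minimum could be passed through the neurons alone, so this count describes the genes detected and not all 11 of the family. Kcnn1 (SK1) was at 1.90, 2.03 and 2.28 CPM in radial glia and 30.1, 18.6 and 35.6 CPM in newborn or Calb1 neurons. Kcnn2 (SK2) was at 4.09, 15.6 and 7.53 CPM in newborn or Calb1 neurons and 28.5 and 47.0 CPM in maturing neurons.

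Maturing and newborn neurons could be compared in the libraries labelled E14 and E18. In the former, 16 of 41 channel genes were higher in maturing neurons, against 8.94% of all genes tested, and 6 were lower, against 10.5%. The count of 16 fell to 6 with the looser cell filter, 9 with libraries clustered separately, and 10 each with no doublets removed, with a 2 times higher doublet rate and with channel genes among the variable genes. In the latter, 19 of 39 were higher (6.47% of all genes) and 2 were lower (4.42%). The median log2 ratio of the channel genes was 0.76 and 0.96, against -0.12 and -0.04 over all genes tested. In both libraries 12 of the 34 genes past the minimum in each were higher, against 4.86% of all genes, including Kcnk1, Cacna1e, Scn2a, Cacna1d, Kcna1, Kcnn2, Kcnq3, Cacng4, Cacng2, Scn1a and Kcnc1, and Kcnd2 and Kcnk2 were lower, against 3.81%. In the edgeR fit over these 2 libraries, which has 1 residual degree of freedom, 26 of 70 channel genes were higher at an adjusted p under 0.05 (9.78% of all genes) and 3 were lower (6.91%). Without the library block, 13 were higher and 1 was lower. The maturing class of the library labelled E14 was mostly corticofugal-like (809 cells) and upper layer-like (674 cells), whereas that of the library labelled E18 was corticofugal-like. The latter was mostly 1 cluster (718 cells) that raised 10 maturing markers, with 0 of them among its 10 leading genes. The newborn class of the library labelled E14 was upper layer-like, so the contrast there mixed layer and stage. Within upper layer-like cells of that library (674 maturing and 549 newborn), an alternative added after seeing the data, 12 of 38 channel genes were higher in maturing cells (7.93% of all genes) and 5 were lower (11%). Of the 12 genes higher in both libraries, 9 were higher here too, among them Scn2a (45.7 and 3.43 CPM), Cacna1d (13.4 and 0.981) and Kcnq3 (17.1 and 1.23). Kcnk1 and Kcnc1 were below the level minimum there, and Kcnk2, at 28.2 and 54.4 CPM, differed by less than 2-fold. Median depth also differed, with 7120 and 14996 UMIs per newborn and maturing cell in the library labelled E14 and 7940 and 12246 in that labelled E18. The 9 endothelial markers summed to 26.95 CPM in newborn and 73.37 CPM in maturing neurons of the library labelled E14, with 6 and 9 detected, and to 13.02 and 33.11 CPM in those of the library labelled E18, with 7 and 8 detected. Over all excitatory neurons of these 2 libraries, Ramp2 alone gave 55.8 of 58.27 CPM and 19.4 of 21.65 CPM. The 9 GABAergic markers of the library labelled E14 summed to 18.05 and 6.988 CPM, with 8 detected in both classes, and the 7 preplate markers to 66.66 and 25.14 CPM, with 5 and 6 detected. In the library labelled E18 the preplate markers ran the other way, at 110.9 and 167.1 CPM, with 6 and 7 detected. The 8 choroid plexus markers of the library labelled E18 summed to 66.89 and 35.91 CPM, with 8 and 6 detected, and the 6 Cajal-Retzius markers to 7.371 and 15.05 CPM, with 5 and 4 detected. The part of depth and of these marker lists in the ratios was not tested.

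The ratio calls varied with the cell filter and the clustering. Across 8 other cell filters, doublet settings and clusterings, Cacna1e, Scn2a, Cacna1d and Cacng4 stayed higher by at least 2-fold in every library that gave a value. Kcna1 turned lower in maturing neurons of the library labelled E14 under 6 of them. In those 6, between 751 and 956 of the unsplit neurons, which had 37.9 CPM of Kcna1, were placed in the newborn class. With Leiden resolution 0.5, 1065 of them were placed there and Kcna1 lost its call without turning lower. Kcnq3, Cacng2, Kcnc1 and Scn1a lost their calls under 7 of the 8, all but the stricter filter, which gave a value for the library labelled E18 alone and where Scn1a lost its call as well. The looser cell filter also ended the calls of Kcnk1 and Kcnn2. Each setting changed more than the placement of these neurons, whose own part was not tested. Kcnd2 kept its lower call under each of the 8, while Kcnk2 lost it with the looser filter, no doublets removed, Leiden resolutions 0.5 and 2, libraries clustered separately and channel genes among the variable genes, as well as with 5 CPM added.

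Within the maturing neurons of the library labelled E14, corticofugal-like and upper layer-like cells differed in 13 of 47 channel genes. Of these, 7 were higher in corticofugal-like cells, against 3.19% of all genes tested, and 6 were lower, against 2.04%. Kcnk1 stood at 58.0 and 4.23 CPM in corticofugal-like and upper layer-like cells, Cacna1e at 71.0 and 21.9 CPM, Scn2a at 104 and 45.7 CPM, and Kcnn2 at 42.2 and 9.77 CPM. The potassium channel-interacting proteins Kcnip1 (9.89 and 2.42 CPM) and Kcnip2 (17.2 and 5.54 CPM) and the pore Kcna1 (25.0 and 8.87 CPM) were also higher. In the other direction, Kcnj2 stood at 1.55 and 29.9 CPM, Kcnd2 at 4.95 and 19.0 CPM and Cacna2d1 at 27.0 and 69.3 CPM. Kcnh3, Kcnmb2 and Cacng2 were the remaining 3 genes that were lower. Kcnj2 in excitatory neurons was thus found in the upper layer-like cells, a cluster to which only 6 neurons of the library labelled E18 belonged.

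**Figure D4:**
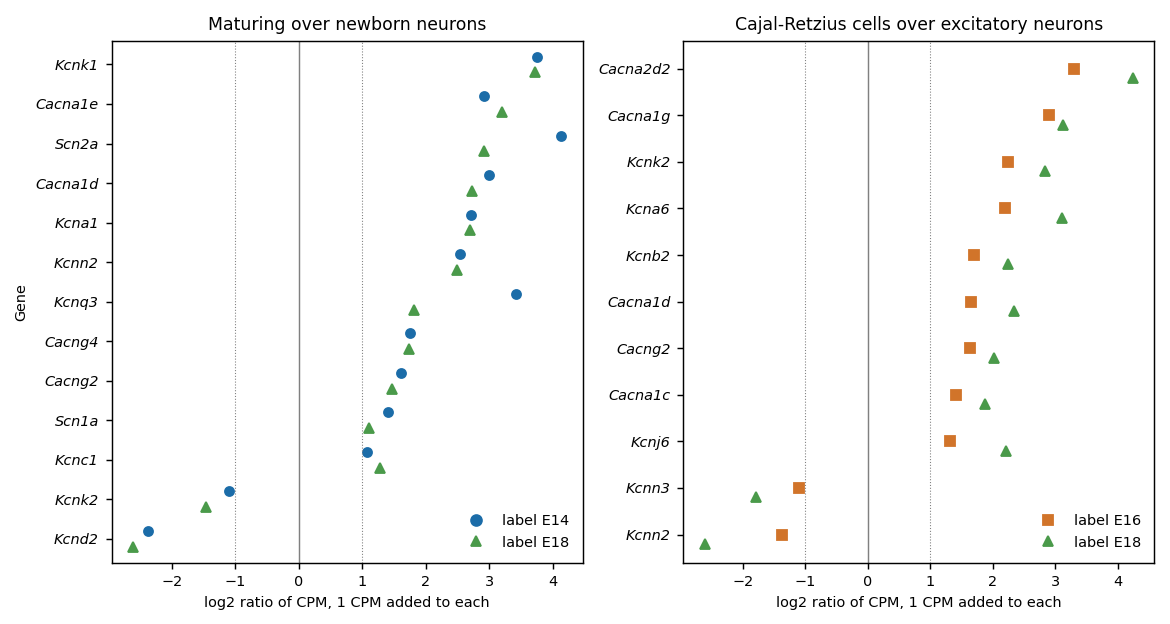
Log2 ratio of CPM (1 CPM added to each) for channel genes called in the same direction in both libraries that gave the comparison, with 1 symbol per library label. The left panel shows maturing over newborn neurons, with Kcnk1 and Scn2a among the highest and Kcnd2 the lowest, and the right panel shows Cajal-Retzius cells over excitatory neurons, with Cacna2d2 the highest and Kcnn2 the lowest.

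Cajal-Retzius cells are early, Reln-secreting neurons of the marginal zone. They were compared with excitatory neurons in the libraries labelled E16 and E18, a comparison added after the classes had been seen. In the former, 12 of 42 channel genes were higher in Cajal-Retzius cells, against 6.61% of all genes tested, and 3 were lower, against 3.03%. In the latter, 18 of 48 were higher (10.4% of all genes) and 7 were lower (4.78%). In both libraries 9 of the 39 genes past the minimum in each were higher, namely Cacna2d2, Cacna1g, Kcnk2, Kcna6, Kcnb2, Cacna1d, Cacng2, Cacna1c and Kcnj6, against 4.22% of all genes. With libraries clustered separately Cacna1c, Cacna1d and Cacng2 lost the call, with 5 CPM added Cacna1c and Kcnj6 lost it, and with a minimum of 20 CPM Cacna1c, Cacna1d, Cacna1g, Kcna6 and Kcnj6 lost it. Kcnn2 and Kcnn3, both SK channels, were lower in both, against 1.63% of all genes. Both lost this call with 5 CPM added, with log2 ratios nearest 0 of -0.98 and -0.66, and with a minimum of 20 CPM, and Kcnn3 also with the mean of cells. In the edgeR fit over these 2 libraries, with 1 residual degree of freedom, 8 of 58 channel genes were higher at an adjusted p under 0.05 (3.23% of all genes) and 2 were lower (1.8%), while without the library block 1 was higher and 0 were lower. At an unadjusted p under 0.05, 25 of the 58 differed in the fit with the block. The share of all genes at that threshold was not computed, so this count is not read further. Kcnn2 had an adjusted p of 0.0473 and Kcnn3 of 0.0546 by edgeR. The other lower gene in this fit was Kcnq3, with a log2 fold change of -3.08 and an adjusted p of 0.0142 by edgeR. Of the 9 genes higher in both libraries, Cacna1c did not pass, with an adjusted p of 0.0615 by edgeR. The excitatory neurons were Calb1 neurons in the library labelled E16 and a mixture of newborn and maturing in that labelled E18. Markers of other classes also differed. The 7 preplate markers summed to 1225 and 663.5 CPM in Cajal-Retzius cells of the libraries labelled E16 and E18, with 5 and 4 detected, and to 550.4 and 135 CPM in the excitatory neurons, with 6 and 7 detected. The 9 endothelial markers summed to 112.4 CPM in Cajal-Retzius cells of the library labelled E18, with 1 detected, against 21.65 CPM in its excitatory neurons, with 8 detected. The 8 choroid plexus markers summed to 53.95 and 24.79 CPM in the library labelled E16, with 6 and 5 detected. The part of these lists in the contrast was not tested.

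The alpha2delta subunits Cacna2d1 and Cacna2d2 were higher in these cells than in any other class. Cacna2d2 stood at 159 and 98.6 CPM in Cajal-Retzius cells and at 15.2 CPM or less in newborn, Calb1 and maturing neurons. Cacna2d1 stood at 173 and 231 CPM. The T-type pore Cacna1g was at 18.5 (11.9 to 27.5) and 36.0 (25.0 to 50.4) CPM, the L-type pore Cacna1d at 14.6 and 42.4 CPM, and the leak channel Kcnk2 at 74.0 and 217 CPM. Scn2a stayed at 13.9 and 13.8 CPM, and Scn3a was at 68.6 (55.1 to 84.4) and 29.7 (19.7 to 42.9) CPM. With 144 and 72 cells, intervals of the less abundant genes were wide.

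GABAergic cells numbered 199 over the 3 libraries, and each value rests on few UMIs. Scn3a stood at 103 (71.6 to 143), 40.7 (26.1 to 60.6) and 73.4 (48.8 to 106) CPM and Kcnn1 at 47.0, 35.7 and 57.7 CPM in the libraries labelled E14, E16 and E18. Kcnc2, which encodes Kv3.2, a pore of fast-spiking interneurons, stood at 11.8, 0 and 39.3 CPM, and at most 0.239 CPM in every excitatory and progenitor class. Kcnip1, an interneuron-associated partner of Kv4 pores, was at 35.3, 1.70 and 34.1 CPM, and Kcnh8 was at 14.7, 5.09 and 39.3 CPM. For Kcnc2, Kcnip1 and Kcnh8 the library labelled E16 was the lowest of the 3.

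Radial glia were then compared between libraries. They came mostly from different clusters, with 1201, 1178 and 574 of the 2977 cells of the library labelled E16 in 3 clusters that held few cells of the others. The libraries labelled E14 (223, 102 and 68 of 401 cells) and E18 (860, 527 and 339 of 1813) shared 3 other clusters. Of 17 channel genes past the minimum between the libraries labelled E16 and E14, Kcnk5 and Cacnb2 were higher in that labelled E16, against 2.43% of all genes, and Kcnk10 and Kcnj10 were lower, against 7.43%. Kcnk5, an acid-sensitive leak channel, stood at 10.6 and 3.28 CPM in the 2 libraries. Of 18 genes between the libraries labelled E18 and E14 none passed in either direction, against 0.981% of all genes higher and 3.29% lower. Of 16 genes between those labelled E18 and E16, 1, Kcnk10, was higher, against 2.06% of all genes, and none was lower, against 0.671%. The 8 choroid plexus markers summed to 3.276, 15.15 and 42.89 CPM in radial glia of the libraries labelled E14, E16 and E18, with 4, 7 and 7 detected. Their part in these differences was not tested. With 1 library for each label, differences between animals, dissections and ages cannot be told apart.

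Newborn neurons were compared between the libraries labelled E18 and E14, where 2 of 30 channel genes were higher in the former (2.25% of all genes), Kcnq3 and Kcna1, and 2 were lower (2.79%), Cacnb4 and Scn3b. This count of 4 moved to 11 with the looser cell filter, 10 with channel genes among the variable genes and 8 with Leiden resolution 0.5. Choroid plexus markers summed to 66.89 and 0 CPM in newborn neurons of the libraries labelled E18 and E14. GABAergic markers summed to 2.98 and 18.05 CPM there, and endothelial markers to 13.02 and 26.95 CPM. The part of these lists was not tested. The Calb1 neurons of the library labelled E16 were set against the newborn neurons as a cluster of their own. Against those of the library labelled E14, 10 of 35 channel genes were higher in Calb1 neurons (5.61% of all genes) and 6 were lower (6.04%). Between newborn neurons of the library labelled E18 and Calb1 neurons, 5 of 35 were higher in the former (2.44%) and 8 were lower (3.38%). The looser filter, the stricter filter and separate clustering gave no value for either contrast with Calb1 neurons. Class and library cannot be told apart here.

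In Calb1 neurons Kcnma1, the pore of the BK channel, stood at 19.9 CPM, against 0.963 and 3.92 CPM in newborn neurons of the libraries labelled E14 and E18. Kcnh2 (ERG1) stood at 18.3 CPM, against 2.41 and 4.94 CPM, and Cacna2d2 at 15.2 CPM, against 2.65 and 2.90 CPM. Kcnn3 (SK3) was low, at 7.78 CPM against 35.6 and 33.2 CPM. Markers of Cajal-Retzius cells and of preplate neurons were raised in Calb1 neurons. The 6 Cajal-Retzius markers found in the files summed to 6.016, 199.9 and 7.371 CPM in newborn or Calb1 neurons of the libraries labelled E14, E16 and E18, with 3, 6 and 5 of them detected, and to 1935 CPM in Cajal-Retzius cells of the library labelled E16. The 7 preplate markers summed to 66.66, 550.4 and 110.9 CPM, with 5, 6 and 6 detected. Their part in these differences was not tested.

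Partner genes that anchor, modify or regulate the channels were taken from a list of 35 genes. Between excitatory neurons and radial glia, 13 passed the minimum in each library, of which 8, 9 and 9 were higher in neurons, against 13.6%, 14% and 14% of all genes, and 1, Rest, was lower, against 19.9%, 16.4% and 17.3%. Ank3, the ankyrin that anchors sodium channels at the axon initial segment, stood at 28.8, 13.1 and 16.5 CPM in radial glia and at 153, 119 and 164 CPM in neurons. Nfasc, an adhesion molecule of the same structure, stood at 6.90, 9.67 and 9.28 CPM and at 62.0, 63.7 and 92.1 CPM. Kcng1, a silent subunit that modifies Kv2 pores, stood at 5.86, 0.59 and 2.75 CPM in radial glia and at 75.1, 70.2 and 162 CPM in neurons. Unc79, part of the sodium leak channel complex, and Ank2 were higher in all 3 libraries as well.

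Between maturing and newborn neurons, 15 and 16 partner genes passed the minimum in the libraries labelled E14 and E18, of which 5 and 6 were higher, against 8.94% and 6.47% of all genes, and 2 and 1 were lower, against 10.5% and 4.42%. Fgf14, which binds the cytoplasmic tail of sodium channels, stood at 25.3 and 51.0 CPM in newborn and at 127 and 158 CPM in maturing neurons. Fgf12, Nrcam and the Kv4 partner Dpp6 were higher in both libraries too. Rem2, a small GTPase that inhibits calcium channels, was lower in both, at 19.3 and 18.2 CPM in newborn and 2.94 and 4.57 CPM in maturing neurons. Fgf11 was lower in the library labelled E14 alone.

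Outside the neural lineage, channel genes of blood vessels, choroid plexus, meninges and blood were found. Of 40 channel genes with at least 20 CPM in a class over the pooled libraries, 8 were highest in a non-neural class, against 54.7% of the 10415 genes at that level. Kcnj8, which encodes the Kir6.1 pore of vascular ATP-sensitive potassium channels, stood at 375 (322 to 433) CPM in the 32 mural cells. It was at 502, 268 and 407 CPM in the 7, 14 and 11 mural cells of the libraries labelled E14, E16 and E18, and 2 UMIs were found in all 5191 radial glia. Endothelial cells had 37.7 CPM, all from the 8 cells of the library labelled E14, with no UMI in those of the other 2 libraries.

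Kcnj13, which encodes Kir7.1, a channel of transporting epithelia, stood at 288 (272 to 304) CPM in choroid plexus cells, at 143 (130 to 158) in the library labelled E16 and 538 (504 to 575) CPM in that labelled E18. Radial glia had 0.69, 0.306 and 0.118 CPM. Kcnj2 stood at 65.4 (49.8 to 84.4) CPM in endothelial cells, of which 50 of 59 UMIs came from the 8 cells of the library labelled E14. Cacnb2 was at 58.6 (51.8 to 66.1) CPM in choroid plexus and at 43.5 (26.9 to 66.4) CPM in mural cells, whose intervals overlapped. Cacna1g was highest in meningeal cells, at 42.1 (32.7 to 53.4) CPM. Kcnn4, the intermediate-conductance calcium-activated channel known as the Gardos channel of red cells, stood at 23.5 (19.1 to 28.5) CPM in erythroid cells and at 11.0 (4.77 to 21.8) CPM in microglia. Kcnq5 was highest in mural cells, at 35.2 (20.5 to 56.3) CPM, from 17 UMIs. Scn3a was also found in mural cells, at 66.2 (45.3 to 93.5) CPM, from 32 UMIs.

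**Figure D5:**
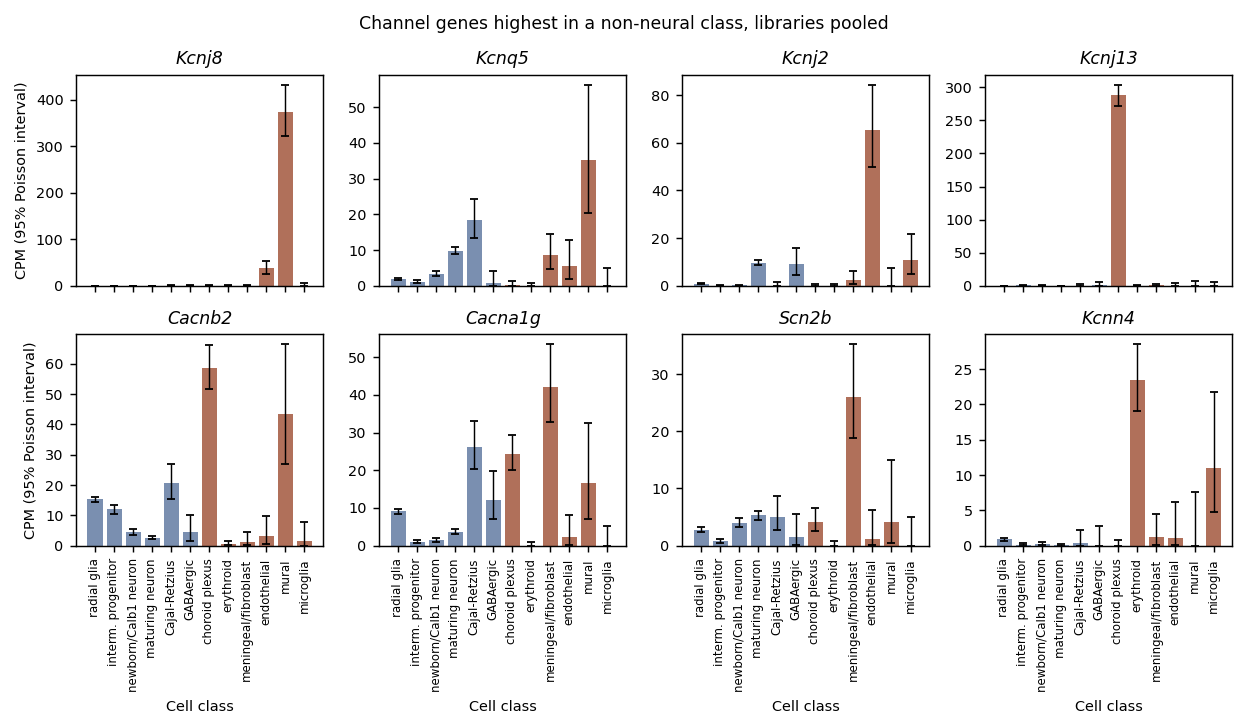
CPM with 95% Poisson intervals over the pooled libraries of the 8 channel genes highest in a non-neural class, with 1 bar per cell class (blue neural, brown non-neural). Kcnj8 and Kcnj13 are near 0 in every neural class, whereas Cacnb2, Cacna1g and Kcnq5 are also present in neural classes.

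Per cell, most channel genes were seen rarely. After thinning each cell to 2000 UMIs, which left out 12, 5 and 13 shallower neurons, 81.8%, 74.5% and 77.5% of excitatory neurons of the libraries labelled E14, E16 and E18 had a UMI of any channel gene, against 4.51% of the 133 erythroid cells. Scn2a was seen in 6.87% (6.03 to 7.78), 2.15% (1.15 to 3.65) and 2.37% (1.78 to 3.09) of these thinned neurons, and without thinning in 30.7%, 6.40% and 12.2%. In thinned radial glia Scn2a was seen in 0 of 396 cells of the library labelled E14 (an upper limit of 0.927% by the exact interval), and in 0.203% (0.0745 to 0.441) and 0.0557% (0.00141 to 0.310) of those labelled E16 and E18. Without thinning the shares were 2.74%, 1.44% and 0.662%. As a measure of free RNA, 1 of 231 erythroid, endothelial, mural and microglial cells had a UMI of Scn2a after thinning, a share of 0.433% (0.0110 to 2.39), and 2.60% without thinning. The interval of the neurons of the library labelled E14 lay above that of this background, while those of the neurons labelled E16 and E18 overlapped it. The thinned radial glia shares were below the pooled background share in each library, and without thinning that of the library labelled E14 (2.74%) was above that of the background (2.60%), which lay inside its interval of 1.38 to 4.86%. No expression of Scn2a in radial glia is read from these shares. The thinned intervals of the neurons in the library labelled E14 lay above those of the other 2 libraries. Maturing neurons numbered 1498 of 3332 in the library labelled E14 and 733 of 2249 in that labelled E18, and those labelled E16 were Calb1 neurons. These intervals count cells of 1 library per label, so no difference between labels is read from them.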

How the data were processed

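UMI counts per gene and cell, with no normalization, were deposited by the authors as 1 filtered matrix per library, with 7100, 6707 and 6937 barcodes for labels E14, E16 and E18. They were made with Cell Ranger 6.0.1, per the file headers, on build mRatBN7.2, per the submitters' processing notes, and the annotation is not given in the sources used here. The labels' protocols also describe cultured cells, multiplexing oligos and a sort for a human antigen, and which of these steps apply to the rat cells is not stated. Total counts were 62740631, 80974234 and 73727823 UMIs, and kept cells had a median of 11193, 12276 and 10475 UMIs.

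From these counts, cells with under 1000 genes or over 10% mitochondrial counts were removed, then 158, 216 and 259 doublets scored with Scrublet at 0.8% per 1000 cells. Cells of all libraries were clustered together with scanpy 1.11.5 (2000 variable genes without the channel genes, 30 components, 15 neighbours, Leiden resolution 1) and clusters were named from marker lists. The naming rule (at least 3 raised markers) was settled after the clusters had been seen. For each library, the UMIs of a class were added up and expressed relative to that class's total as CPM. Intervals are exact Poisson (CPM), exact Clopper-Pearson (shares) or derived from the binomial split (ratios), all at 95%, and UMIs of 1 library give counting error only. With 1 library per label no p-value between labels was computed. Added after the data had been seen, 3 contrasts between classes were tested over the libraries that held both, on summed UMIs with the library as a block (edgeR 4.0.16, quasi-likelihood test, default expression filter and scaling, Benjamini-Hochberg over all genes, with DESeq2 1.42.0 as an alternative). The class names came from the same cells, though not from the channel genes. Both steps were tested on simulated data.

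Channel genes were named with their values when they reached 20 CPM in a class of at least 30 cells, first those called alike in every library, and the sodium channel and calcium channel pores were named at any level. A few genes are not reported here, though they enter the counts. The members, marker lists and partner list were chosen with earlier results of these data known. Alternatives covered the cell filter, doublets, clustering, the level minimum, the added CPM, averaging over cells and centring.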

Additional observations from a re-analysis of the deposited data

Results flagged for a closer look

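Kcnk10 was lower in excitatory neurons than in radial glia in the library labelled E14, with a log2 ratio of -1.42, and higher in the library labelled E16, with a log2 ratio of 1.53. It drew attention because the 2 libraries gave opposite directions in the same contrast. Neurons had similar levels, at 34.7 and 34.9 CPM, and radial glia had 94.5 and 11.4 CPM. The difference between the libraries was not tested, since each label has 1 library.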

How the results depend on the processing

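Labels could not be compared in pairs because each has 1 library. In the edgeR fits with the library as a block, maturing over newborn neurons gave 13 higher and 1 lower without the replicate block and 8 lower with no filter. Cajal-Retzius cells over excitatory neurons gave 1 higher and 0 lower without the block, 17 higher and 7 lower with no filter, and 1 lower with DESeq2. Leaving out 1 library at a time, neurons over radial glia gave 35 to 53 higher and 2 to 9 lower, the fewest without the library labelled E18. Fits over 2 libraries leave no residual degree of freedom without 1 of them.

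Of 224 recomputed values of the 18 ratio counts, 177 stayed within 1.5 times and 47 did not, over 15 settings. With a minimum of 20 CPM, neurons over radial glia gave 5, 3 and 5 channel genes higher and 1, 0 and 0 lower for labels E14, E16 and E18, maturing over newborn neurons 3 and 8 higher, radial glia E16 over E14 1 that differed, newborn or Calb1 neurons 6 (E16 over E14), 2 (E18 over E14) and 5 (E18 over E16), corticofugal over upper layer neurons 5, and Cajal-Retzius cells 4 and 8 higher. With no minimum, these were 48, 43 and 46 higher and, for E14 and E18, 6 and 7 lower in neurons, 29 higher in maturing neurons of E14, 10, 4 and 3 that differed in radial glia (E16 over E14, E18 over E14, E18 over E16), 28, 9 and 22 in newborn or Calb1 neurons in the same order, and 28 higher in Cajal-Retzius cells of E18. Fewer or more genes enter under these minimums by construction. With 5 CPM added, 2 differed in radial glia of E16 over E14, and 9 and 2 in Calb1 neurons of E16 and newborn neurons of E18 over E14.

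For maturing over newborn neurons of E14, 6 were higher with the looser cell filter, 10 with no doublets removed, with 2 times as many doublets removed and with channel genes among the variable genes, and 9 with libraries clustered separately. In newborn neurons of E18 over E14, the looser filter gave 11, Leiden resolution 0.5 gave 8, own clustering 2 and channel genes among the variable genes 10. In radial glia of E18 over E14, the stricter filter, no doublets removed and own clustering gave 1 each, and own clustering gave 2 for E18 over E16. With doublets removed at 2 times the rate, 5 were lower in neurons of E14 and 5 were highest in a non-neural class. Newborn neurons alone gave 17 higher over radial glia of E14. The log2 ratio of Kcna1 in maturing over newborn neurons of E14 reversed to -0.96 (looser filter), -0.89 (no doublets removed), -0.83 (doublets at 2 times the rate), -0.97 (Leiden resolution 2), -0.89 (own clustering) and -0.90 (channel genes among the variable genes). The cause of these moves was not tested. The stricter filter gave no value for neurons over radial glia of E16, maturing over newborn and corticofugal over upper layer neurons of E14, Cajal-Retzius cells or newborn neurons between labels. The looser filter and own clustering gave none for E16 over E14 and E18 over E16 in newborn or Calb1 neurons. The non-neural count was not recomputed under other minimums, added CPM or centring. Intervals cover counting error within 1 library, and small classes limit the less abundant genes.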
